A study of Mus musculus with 6 samples.

Results

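The genes described here are 28 genes of the ciliary transition zone and basal body, the structures at the foot of the primary cilium, measured by RNA sequencing in the mouse corneal epithelium. They were given as a list of symbols, and all 28 were found among the 25006 genes of 1 table of raw counts. Total RNA came from isolated sheets of corneal epithelium, a stratified tissue at the surface of the eye. Of the 6 libraries, 3 are wild type and 3 are labelled EphA2 null, that is, without the receptor tyrosine kinase EphA2. The labels give no strain, age, sex or allele, and no treatment. Whether each sample is its own animal is not stated either, and every p-value here therefore reflects only how far these samples vary, which may be technical variation. The study's title places EphA2 in a question about cilium formation and autophagy in this tissue, and the comparison below asks whether transcripts of the base of the cilium differ between the genotypes.

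A primary cilium is a single sensory projection that grows from a modified centriole, the basal body. Distal appendages anchor the basal body to the membrane, and the kinase TTBK2, brought there by CEP164, triggers loss of the CP110 and CEP97 cap that holds the centriole inactive. Above the appendages lies the transition zone, a gate built from the MKS proteins, the tectonics and the NPHP proteins on a CEP290 and RPGRIP1L scaffold, which controls what enters the ciliary membrane. Small GTPases of the RAB and ARL families deliver and release the membrane cargo. Many of these genes are mutated in Joubert and Meckel syndromes and in nephronophthisis, the diseases for which the module is best known.

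Total counts ran from 15308013 to 27586942 per library. The number in the sample titles falls in a lower range for wild type 1, wild type 2 and labelled null 1 (the low-number set) and in a higher range for wild type 3, labelled null 2 and labelled null 3 (the high-number set). Wild type 1 and 2 carry the same number, as do labelled null 2 and 3, and the labels do not say what the number is. Titles that share a number end in different letters, which were not used here. The libraries separated by the number along the first principal component, which held 62.0% of the variance. Epha2 itself was not lower under the null label. Its level (CPM, counts scaled to library size with TMM factors) was 298, 253 and 563 in wild type 1, 2 and 3, against 285, 653 and 578 in labelled null 1, 2 and 3. The difference on the log2 scale was 0.44 ± 0.39 (adjusted p = 0.9996, edgeR). Between the title number sets, with genotype in the model, Epha2 was higher in the high-number set by 1.07 on the log2 scale (adjusted p = 0.00174, edgeR). The labels do not say which part of the gene is missing, and every direction by genotype rests on the label alone. Genotype differences were therefore fitted with genotype as the only term and with the title number set as a second term. A genotype value given alone is from the fit without the set. The plot of genotype differences shows both. The corneal epithelial markers Krt5, Krt12, Krt14, Pax6, Aldh3a1 and Tkt were present in every library. Of 6 markers of multiciliated cells, Foxj1 had 4 counts, Dnah5 2 and Tekt1 15 over all 6 libraries together, Rsph1 and Ccdc39 were at most 3.06 CPM, and Tppp3 reached 120.4 CPM.

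All 28 members passed the filter on low counts, and the lowest count of any member in any library was 8, for Nphp4. Levels between genes are compared per length, as mean CPM per kilobase of annotated exon, counted over all transcripts of a gene. Pcm1, which encodes the scaffold of the centriolar satellites, had the highest level per length at 20.9 CPM per kilobase, followed by the GTPase gene Rab8a at 15.4. The ranges of these 2 over the 6 libraries, 19.3 to 23.1 and 12.6 to 17.1, did not overlap each other or that of the next gene. Arl3 came next at 6.43 CPM per kilobase, with a range over the libraries of 5.08 to 7.55 that overlapped those of Ofd1 (5.75) and Inpp5e (5.36). By this measure the MKS and tectonic genes of the gate had lower transcript levels per length than these 5. The highest was Cc2d2a at 3.65 CPM per kilobase and the lowest was Tctn2 at 0.692. Cep97 (0.424) and Nphp4 (0.245) had the lowest levels per length of the 28. The order depends on the length used. For Arl3 the longest coding transcript had 1005 bases, against 2490 of annotated exon, and for B9d1 817 against 1593. For Rab8a it had 4550 against 4678. Levels over transcript length were not compared. The plot of levels by library gives CPM not divided by length, with each library marked.

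**Figure D1:**
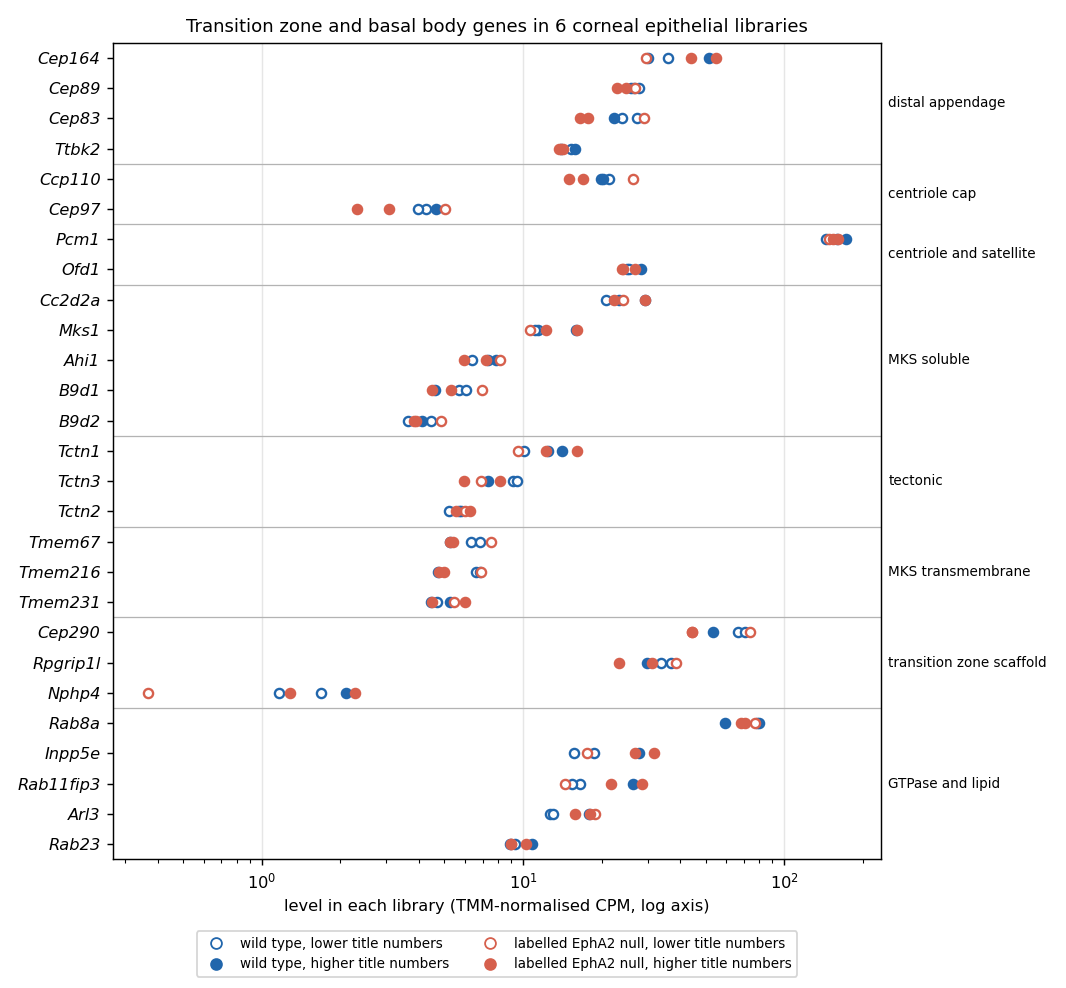
Level of 27 of the 28 genes in each of the 6 libraries (x axis, TMM-normalised CPM on a log axis), grouped by role; blue points are wild type, red points are labelled EphA2 null, open points have lower and filled points higher title numbers. Blue and red points mix in every gene shown, while open and filled points lie apart in several, such as Cep164, Cep290 and Inpp5e; Nphp4 in labelled null 1 lies lowest at 0.367 CPM.

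Between the genotypes no member of the module was called. With a threshold of 0.05 on the adjusted p from edgeR (quasi-likelihood), 0 of 28 passed, against 0.00778% of the 12847 genes tested, which is 1 gene, Padi1. None of the 28 had an unadjusted p under 0.05, against 1.18% of all genes, and DESeq2 and limma voom also called 0 members and found 0 with an unadjusted p under 0.05. With single libraries left out, still 0 were called, but 4 of 28 had an unadjusted p under 0.05 without labelled null 1, against 7.13% of all genes, and 1 of 28 without wild type 3, against 2.36%. The groups overlapped in all 28 members, and in all but 3.73% of the tested genes. The log2 fold changes, labelled null over wild type, ran from -0.31 to 0.29, with 12 above 0 (42.9%, against 53.1% of all tested genes) and 16 below. Their median was -0.02, beside 0.01 for all tested genes.

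How large a difference these libraries leave room for was read from the 95% interval of each log2 fold change. For 26 of the 28 members the interval lay within 2-fold in either direction, and for 14 it lay within 1.5-fold; over all tested genes the shares were 78.8% and 42.5%. The exceptions at 2-fold were Cep97, with an interval of -1.04 to 0.43, and Nphp4, with -1.69 to 1.06. Fewer members lay within 2-fold under some alternatives, 24 with libraries of the same title number summed and 23 without wild type 3. Adding the title number set as a term narrowed the intervals, and 27 of 28 then lay within 2-fold (background 87.6%) and 24 within 1.5-fold (background 70.6%). With that term 0 members were called, 0 had an unadjusted p under 0.05 against 3.87% of all tested genes, and the member median was -0.04. Some members changed sign between the fits. Tctn1 went from 0.05 to -0.11, Rab8a from -0.01 to 0.10 and Tmem216 from -0.13 to 0.04. Nphp4 was the member whose interval still reached beyond 2-fold, at -1.95 to 0.18.

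**Figure D2:**
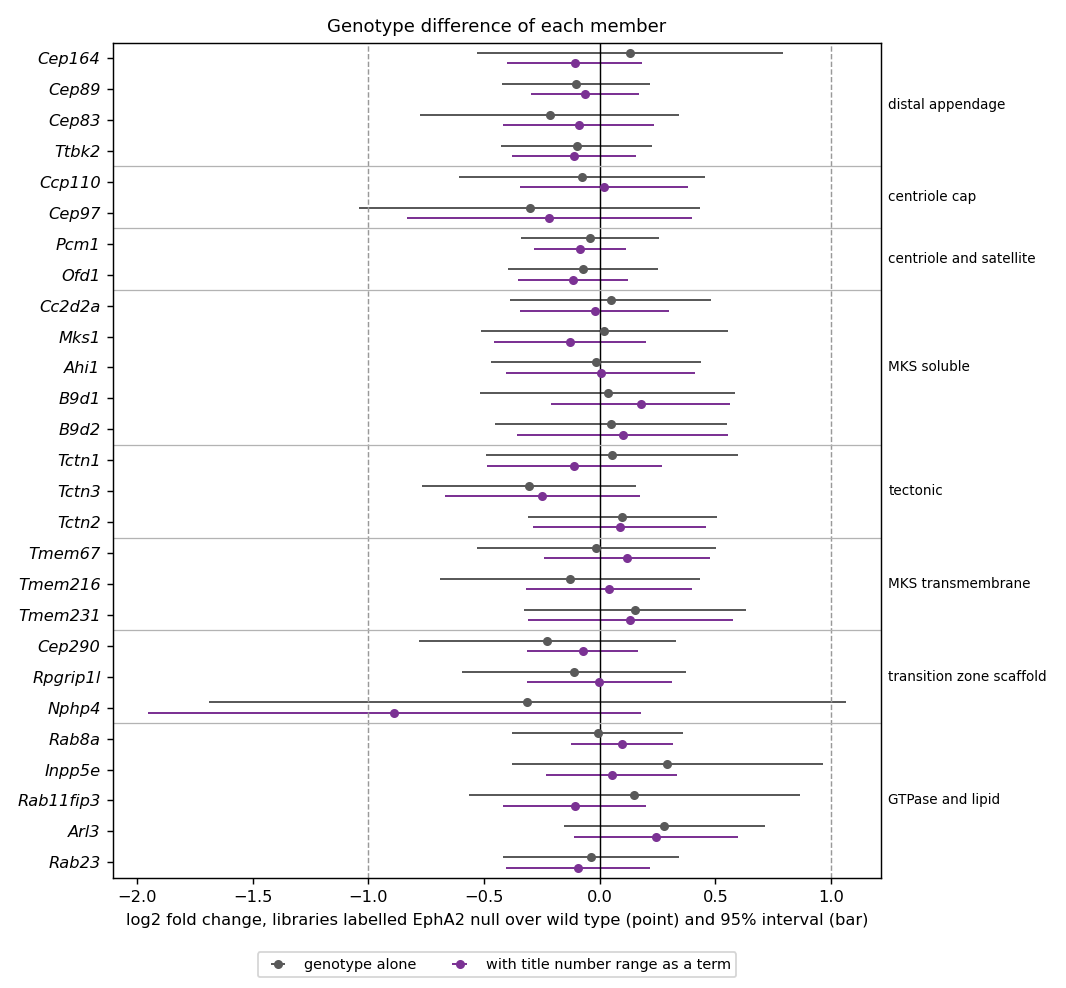
Genotype difference of 27 of the 28 genes: log2 ratio of labelled null to wild type (points), with its 95% interval (bars), from the fit with genotype alone (grey) and with the title number set as a term (purple); dashed lines mark 2-fold. Every interval shown includes 0, and those of Cep97 and Nphp4 reach past a dashed line with genotype alone.

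The same genes were then compared between the title number sets, with genotype in the model. Here 8 of the 28 members, or 28.6%, had an adjusted p under 0.05 (edgeR), against 44.7% of all tested genes. Rab11fip3, Inpp5e, Cep164 and Mks1 were higher in the high-number set (4 of 28, against 24.6% of all tested genes), and Cep290, Tmem216, Cep83 and Rab8a were lower (4 of 28, against 20.1%). In 12 of the 28 members the sets did not overlap, or 42.9%, against 59.0% of all tested genes. The member median was -0.01, as it was over all tested genes, with 14 of 28 members above 0 (background 49.4% of all tested genes) and 14 below. The share called among the members was below that of all genes here, but not without a filter on low counts, where 12 of 28 members and 34.2% of all genes were called. Without labelled null 1, which leaves 2 wild type libraries of the same title number in the low-number set, 0 members and 1103 of all genes (8.47%) were called, and the member median was 0.14, beside -0.00056 for all genes. Without wild type 2 it was 4 members and 27.2% of all genes. DESeq2 called 8 members and 41.8% of all genes, and limma voom called 8 members and 44.3%.

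**Figure D3:**
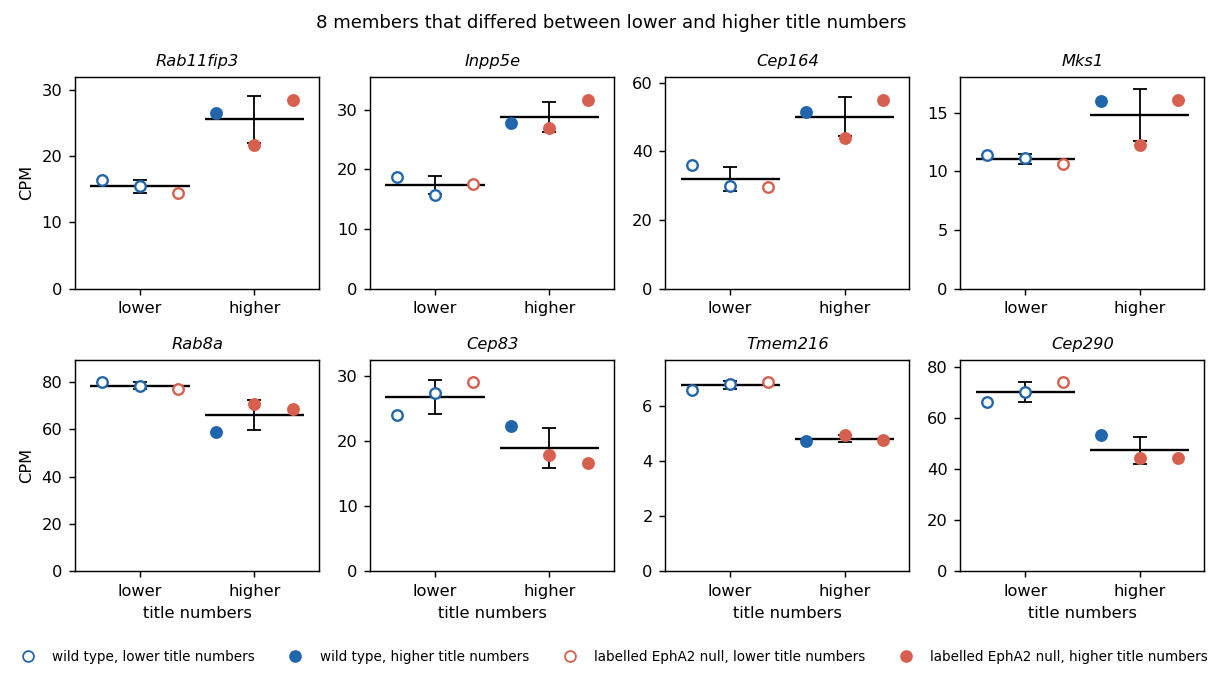
Level in each library (y axis, TMM-normalised CPM from 0) of the 8 genes that passed an adjusted p of 0.05 between the title number sets; colours and fills are as in the plot of levels by library, and lines and bars give the mean and SD of 3 libraries. In each panel all 3 filled points lie on 1 side of the 3 open points, above them in the upper row and below them in the lower row, with blue and red points in both sets.

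Among the distal appendage genes, Cep164 and Cep83 moved in opposite directions between the sets. Cep164 (ENSMUSG00000043987, chromosome 9, 45766946 to 45828691 on the minus strand of GRCm38) encodes the appendage protein that recruits TTBK2. It was at 36.0, 30.0 and 29.6 CPM in the low-number set (wild type 1, wild type 2, labelled null 1) and at 51.5, 43.8 and 55.0 CPM in the high-number set (wild type 3, labelled null 2, labelled null 3), the order kept below. Each of the 3 high-number libraries was above each of the others. The log2 fold change, high-number over low-number set, was 0.69 ± 0.13 (SE, n = 3 per set; adjusted p = 0.00449, edgeR), while that between the genotypes was 0.13 ± 0.28 and -0.11 with the set as a term. Cep83 (ENSMUSG00000020024, chromosome 10, 94688654 to 94790853 on the plus strand of GRCm38) encodes the innermost appendage protein, on which the assembly of the others depends. Its levels were 23.9, 27.3 and 29.0 CPM in the low-number set and 22.3, 17.8 and 16.5 CPM in the high-number set. The 3 low-number libraries were the higher ones, with a difference of -0.49 ± 0.14 on the log2 scale (adjusted p = 0.0248, edgeR), and it did not pass under 3 of 14 alternatives. Without labelled null 1 it was -0.20 (adjusted p = 0.447, edgeR), without wild type 2 it was -0.51 (adjusted p = 0.0607), and with libraries of the same title number summed it was -0.49 (adjusted p = 0.0593). Between the genotypes Cep83 had -0.22 ± 0.24. Cep89, another appendage gene and the highest of the group per length, was at 27.9, 26.5 and 25.8 CPM across wild type 1 to 3, with 26.8, 23.0 and 24.8 CPM across labelled null 1 to 3. These values overlap between the genotypes, and the log2 fold change was -0.10 ± 0.14. Ttbk2 had -0.10 ± 0.14 by genotype and 0.04 ± 0.12 by set. Annotated exons of Ttbk2 share 29.9% of their bases with Cdan1 on the same strand, so reads there cannot be assigned to 1 gene with certainty.

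The cap genes Ccp110 and Cep97 were highest in labelled null 1 and lowest in labelled null 2 and 3. CP110 and CEP97 form the cap that keeps a centriole from growing a cilium. Ccp110 was at 21.3, 19.9 and 20.2 CPM across wild type 1 to 3, with 26.3, 15.0 and 17.0 CPM across labelled null 1 to 3. The 3 wild type values lay between these, with a log2 fold change of -0.08 ± 0.23. Cep97 was at 4.25, 3.96 and 4.66 CPM across wild type 1 to 3, with 5.05, 2.31 and 3.06 CPM across labelled null 1 to 3. Its values were ordered in the same way by group, and the log2 fold change was -0.30 ± 0.31. Within the low-number set the log2 ratio of the genotype means was 0.35 for Ccp110 and 0.30 for Cep97, and within the high-number set it was -0.34 and -0.79. Each of these within-set ratios, and of those given below, has 1 library on one side, since labelled null 1 is the only library of its label in the low-number set and wild type 3 the only wild type in the high-number set. An interaction term, added after the data were seen and resting on the same 2 single libraries, compared the genotype difference between the sets. No member passed (adjusted p of at least 0.9991 in edgeR), and 4 of 28 (14.3%) had an unadjusted p under 0.05, against 4.71% of all genes: Ccp110, Cep97, Cep83 and Arl3. In each of these 4 labelled null 1 had the highest level of the 6, and without it the genotype log2 fold change was -0.36 for Ccp110, -0.67 for Cep97 and -0.52 for Cep83 (adjusted p = 0.527 for each, edgeR). For Arl3 it was 0.23 (adjusted p = 0.592).

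Pcm1 and Ofd1 passed neither test. PCM1 holds together the centriolar satellites, granules that carry proteins to the basal body, and OFD1 acts at the distal end of the centriole and also resides in satellites. Pcm1 was at 144, 159 and 172 CPM across wild type 1 to 3, with 148, 153 and 160.2 CPM across labelled null 1 to 3. The highest library was 1.20 times the lowest, and the groups overlapped. The log2 fold change by genotype was -0.04 ± 0.13, with a 95% interval of -0.34 to 0.26, and by set 0.14 ± 0.09 (adjusted p = 0.232). Ofd1 was at 25.1, 25.3 and 28.4 CPM across wild type 1 to 3, with 23.9, 24.1 and 26.8 CPM across labelled null 1 to 3. The groups overlapped, with -0.07 ± 0.14 by genotype and 0.13 ± 0.10 by set.

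Of the 5 soluble MKS module genes, Mks1 passed the test between the sets. MKS1, B9D1 and B9D2 are the 3 proteins with a B9 domain, and they form a complex at the transition zone. Mks1 (ENSMUSG00000034121, chromosome 11, 87853215 to 87863803 on the plus strand of GRCm38) was at 11.4, 11.1 and 10.6 CPM in the low-number set and at 16.0, 12.3 and 16.1 CPM in the high-number set. The lowest high-number library, labelled null 2, was close above the low-number libraries, and the difference was 0.46 ± 0.14 on the log2 scale (adjusted p = 0.0299, edgeR). It was called under 8 of 14 alternatives, and not with upper quartile factors or without any 1 of wild type 1, 2 and 3 and labelled null 1 and 3. Its partners did not pass. B9d1 had -0.44 ± 0.17 by set (adjusted p = 0.0654) and B9d2 -0.16 ± 0.20 (adjusted p = 0.545). Cc2d2a, a membrane-tethering scaffold of the module, was the highest of the 5 per length, at 20.8, 23.2 and 29.2 CPM across wild type 1 to 3, with 24.2, 22.3 and 29.2 CPM across labelled null 1 to 3. The 2 genotypes spanned nearly the same range, and the log2 fold change by genotype was 0.05 ± 0.19. AHI1 (jouberin) joins this complex. Ahi1 had -0.02 ± 0.19 by genotype, B9d1 0.03 ± 0.23, B9d2 0.05 ± 0.21 and Mks1 0.02 ± 0.23. With genotype as the only term all 5 were between -0.02 and 0.05 on the log2 scale. With the set as a term they ran from -0.13 for Mks1 to 0.18 for B9d1.

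Tctn3 had the smallest genotype p of all 28 members and did not pass (adjusted p = 0.9996, edgeR). The tectonics TCTN1, TCTN2 and TCTN3 are related secreted or membrane proteins of the transition zone. Tctn3 was at 9.17, 9.44 and 7.36 CPM across wild type 1 to 3, with 6.88, 5.95 and 8.18 CPM across labelled null 1 to 3. Wild type 1 and 2 were the highest, and wild type 3 lay among the labelled null values. The log2 fold change was -0.30 ± 0.20 (SE, n = 3 per group), and -0.25 with the set as a term. It was -0.44 within the low-number and -0.06 within the high-number set. Tctn1 was at 12.4, 10.1 and 14.0 CPM across wild type 1 to 3, with 9.59, 12.2 and 16.1 CPM across labelled null 1 to 3. The difference was 0.05 ± 0.23 by genotype and 0.44 ± 0.17 by set (adjusted p = 0.0586). Exons of Tctn1 share 19.0% of their bases with Hvcn1 on the other strand, which the counts cannot separate if strand was not used. Tctn2 was nearly level, between 5.18 CPM in wild type 2 and 6.27 CPM in labelled null 3.

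Of the transmembrane gate genes, Tmem216 was lower in the high-number set and passed the test. TMEM67 (meckelin) is a receptor-like protein, and TMEM216 and TMEM231 are small membrane proteins of the same gate. Tmem216 (ENSMUSG00000024667, chromosome 19, 10533865 to 10556238 on the minus strand of GRCm38) was at 6.61, 6.82 and 6.88 CPM in the low-number set and at 4.73, 4.97 and 4.78 CPM in the high-number set. The spread within each set was small, and the difference was -0.50 ± 0.16 on the log2 scale (adjusted p = 0.0315, edgeR). It rests on 70 to 150 counts per library, and DESeq2 did not call it (adjusted p = 0.0725). Apart from DESeq2 and summed libraries, it was lost without any 1 of wild type 1, 2 and 3 and labelled null 1 and 3. By genotype Tmem216 had -0.13 ± 0.24. For Tmem67, whose sets did not overlap either, the difference by set was -0.42 ± 0.16 (adjusted p = 0.0595) and by genotype -0.01 ± 0.22. Tmem231 was at 4.68, 4.43 and 5.27 CPM across wild type 1 to 3, with 5.46, 4.48 and 6.01 CPM across labelled null 1 to 3. The groups overlapped, with 0.15 ± 0.20 by genotype and 0.07 ± 0.19 by set.

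Cep290 was lower in the high-number set. CEP290 links the transition zone microtubules to the membrane, and its gene is mutated in Joubert and Meckel syndromes. Cep290 (ENSMUSG00000019971, chromosome 10, 100487558 to 100574840 on the plus strand of GRCm38) was at 66.5, 70.4 and 74.1 CPM in the low-number set and at 53.5, 44.3 and 44.4 CPM in the high-number set. The sets were well separated, and the difference was -0.55 ± 0.11 on the log2 scale (SE, n = 3 per set; adjusted p = 0.00498, edgeR). Within wild type the log2 ratio of the set means was -0.36 and within labelled null -0.74. By genotype Cep290 had -0.23 ± 0.24, which became -0.07 with the set as a term. RPGRIP1L is the other scaffold of this gate. Rpgrip1l had -0.37 ± 0.14 by set (adjusted p = 0.0566) and -0.11 ± 0.21 by genotype.

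Nphp4, named after its values were seen, had the widest spread of the module. NPHP4 is a transition zone protein mutated in nephronophthisis. Nphp4 was at 1.69, 1.17 and 2.09 CPM across wild type 1 to 3, with 0.367, 1.28 and 2.28 CPM across labelled null 1 to 3. Labelled null 1 stands apart with 8 counts, and the highest library had 61. The genotype log2 fold change was -0.31 ± 0.59, or -0.89 with the set as a term, and neither passed (adjusted p = 0.9996 with genotype alone). By set it had 1.25 ± 0.47, or 2.37-fold, which did not pass (adjusted p = 0.0586, edgeR). The gene lies 11.1 Mb from Epha2 on chromosome 4.

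Among the GTPase and membrane lipid genes, Rab11fip3 and Inpp5e were higher and Rab8a was lower in the high-number set. RAB11FIP3 (Eferin) is a RAB11 effector of the recycling pathway that feeds ciliary membrane. Rab11fip3 (ENSMUSG00000037098, chromosome 17, 25989036 to 26069555 on the minus strand of GRCm38) was at 16.4, 15.4 and 14.4 CPM in the low-number set and at 26.5, 21.6 and 28.5 CPM in the high-number set. The difference was 0.76 ± 0.14 on the log2 scale, or 1.70-fold (adjusted p = 0.00390, edgeR). INPP5E is the phosphatase that sets the phosphoinositide content of the ciliary membrane. Inpp5e (ENSMUSG00000026925, chromosome 2, 26396249 to 26409203 on the minus strand of GRCm38) was at 18.7, 15.7 and 17.6 CPM in the low-number set and at 27.8, 26.9 and 31.7 CPM in the high-number set. No library of either set overlapped the other, and the difference was 0.71 ± 0.12, or 1.64-fold (adjusted p = 0.00370, edgeR). By genotype Rab11fip3 had 0.15 ± 0.31 and Inpp5e 0.29 ± 0.29, and with the set as a term -0.11 and 0.05. Exons of Inpp5e share 20.3% of their bases with Pmpca on the other strand, those of Cep290 7.58% with 4930430F08Rik, those of Rab11fip3 7.43% with 1700022N22Rik and those of Tmem216 5.15% with Cpsf7. How these shared bases were counted is not known here.

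RAB8A drives vesicle docking and growth of the ciliary membrane. Rab8a (ENSMUSG00000003037, chromosome 8, 72161200 to 72183904 on the plus strand of GRCm38) was at 80.0, 78.4 and 76.9 CPM in the low-number set and at 59.1, 70.7 and 68.5 CPM in the high-number set. Wild type 3 was the lowest, and the difference by set was -0.28 ± 0.10 (adjusted p = 0.0428, edgeR). It was called under 8 of 14 alternatives, and not with libraries of the same title number summed or without any 1 of wild type 1, 2 and 3 and labelled null 1 and 3. By genotype Rab8a had -0.01 ± 0.16. ARL3 releases lipid-modified cargo inside the cilium. Arl3 was at 12.6, 13.0 and 17.8 CPM across wild type 1 to 3, with 18.8, 15.7 and 18.1 CPM across labelled null 1 to 3. Wild type 1 and 2 were the lowest, and wild type 3 lay within the labelled null values. Its genotype log2 fold change of 0.28 ± 0.19 had the second smallest p of the 28 (adjusted p = 0.9996, edgeR). The ratio was 0.55 within the low-number and -0.07 within the high-number set. Rab23, with -0.04 ± 0.16 by genotype and 0.17 ± 0.14 by set, did not pass either test.

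The 4 called members that rose and the 4 that fell between the sets differed in base composition. GC content was taken from the longest coding transcript of each gene in GENCODE M21. Where none was coding, as for Tctn2, the longest transcript of any kind was used. The 4 members higher in the high-number set had 53.9% (Inpp5e), 54.6% (Mks1), 57.7% (Cep164) and 58.6% (Rab11fip3) GC. The 4 lower members had 38.7% (Cep290), 43.6% (Cep83), 47.7% (Tmem216) and 49.4% (Rab8a), so these ranges do not overlap. Across the 28 members Spearman's rho between GC content and the difference by set was 0.52, and across 12841 tested genes with a transcript it was 0.48. These correlations are across genes of the same 6 libraries and are descriptions. Of 10 equal bins of all tested genes by GC content, the lowest had a median difference by set of -0.38, and the highest had 0.47. Cep290 at -0.55 lay below the median of -0.38 of its own bin, and Rab11fip3 at 0.76 above that of 0.47. Pcm1, in the lowest bin with 41.3% GC, had 0.14, against that bin's median of -0.38. Other members that were not called lay on the other side of 0 from the called members of like GC content. B9d1, with 54.8% GC, had -0.44, B9d2 (56.0%) had -0.16 and Cep89 (53.8%) had -0.12, while Ofd1 (43.9%) had 0.13 and Cc2d2a (47.5%) had 0.25. The part of GC content in the differences between the sets was not tested.

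**Figure D4:**
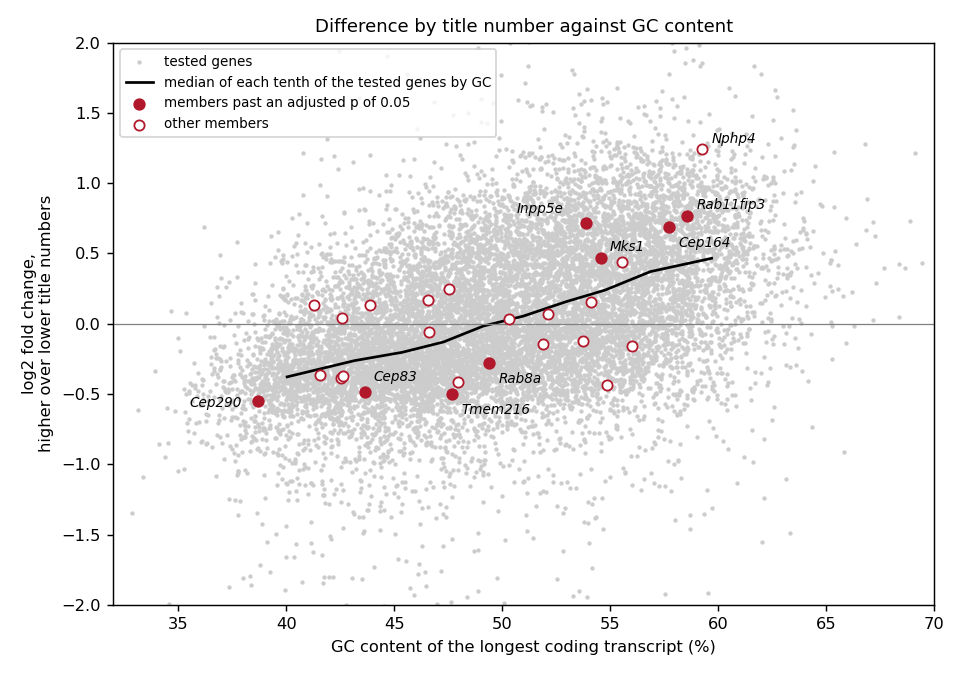
Log2 fold change, high-number over low-number set (y axis), against the GC content of the longest coding transcript (x axis, percent), for all tested genes (grey, 97 lie outside the plotted area) and 27 of the 28 members (red, filled where the adjusted p was under 0.05); the black line joins the medians of 10 equal bins of the tested genes by GC content. For genes without a coding transcript, such as Tctn2, the longest of any kind was used. The line climbs from -0.38 to 0.47, and the filled points below 0 all lie to the left of those above 0.

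The contrast in composition can be seen in the coding sequences of the 2 called members with the lowest and the 2 with the highest GC content. Each line holds the first in-frame stretch of 120 bases whose GC content is closest to that of the whole coding sequence, 5′ to 3′, from GENCODE M21 on GRCm38, with G and C in capitals. The stretches are shown for their composition, which is 38.8% GC over the whole coding sequence in Cep290, 42.0% in Cep83, 57.8% in Cep164 and 60.0% in Rab11fip3. The Cep290 stretch begins at coding base 130 (chr10:100488589-100489388, plus strand, 2 exons), that of Cep83 at 292 (chr10:94719737-94728611, plus strand, 3 exons), that of Cep164 at 370 (chr9:45807555-45809733, minus strand, 2 exons) and that of Rab11fip3 at 523 (chr17:26068536-26068655, minus strand, 1 exon), with introns left out.
Cep290: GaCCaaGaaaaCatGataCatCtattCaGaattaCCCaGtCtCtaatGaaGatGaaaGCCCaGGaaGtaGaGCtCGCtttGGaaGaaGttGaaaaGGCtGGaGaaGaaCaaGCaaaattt
Cep83: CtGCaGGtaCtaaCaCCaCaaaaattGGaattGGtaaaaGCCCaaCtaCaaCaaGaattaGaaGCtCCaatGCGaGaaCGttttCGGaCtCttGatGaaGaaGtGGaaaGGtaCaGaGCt
Cep164: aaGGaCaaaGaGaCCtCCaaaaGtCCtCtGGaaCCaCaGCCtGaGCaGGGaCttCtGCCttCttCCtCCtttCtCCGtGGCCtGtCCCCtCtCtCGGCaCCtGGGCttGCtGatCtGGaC
Rab11fip3: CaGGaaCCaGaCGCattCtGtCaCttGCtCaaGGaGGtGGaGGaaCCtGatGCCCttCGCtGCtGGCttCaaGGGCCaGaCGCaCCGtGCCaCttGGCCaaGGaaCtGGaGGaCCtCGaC

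RFX transcription factors bind a paired motif, the X-box, in the promoters of many ciliary genes. A relaxed form of it (GT, 4 bases of any kind, AT, 3 bases of any kind, AAC) was searched on both strands from 250 bases before to 50 after each start in the RefSeq table of GRCm38.p6, which holds 26 of the 28 members. It matched 2 members, Tctn2 and Tmem216, in 2 of 35 windows, or 5.71%, against 2.63% of all 32851 windows. The matches are shown in capitals, with 20 bases on each side where these lie before the start used for the window. The Tctn2 match (chr5:124598687-124598700) lies 48 bases before the start. The Tmem216 match (chr19:10555731-10555744, GRCm38.p6) begins 19 bases after a start that lies inside the annotated gene (window 10555714-10556013). The window of its upstream start (chr19:10556189-10556488) had 0 matches. Both are printed on the strand of the gene, plus for Tctn2 and minus for Tmem216, and read as the motif on the opposite strand.
Tctn2: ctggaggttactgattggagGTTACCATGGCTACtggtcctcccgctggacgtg
Tmem216: GTTTCCATGGGGAC
The letters are a description of these windows and not a bound site. Of the RFX genes themselves, Rfx1 (0.77 ± 0.12, adjusted p = 0.00280, edgeR) and Rfx2 (0.76 ± 0.14, adjusted p = 0.00445) were higher in the high-number set, while Rfx3, Rfx5 and Rfx7 did not pass. Myb, which is not an RFX gene but is in the same list, did not pass either. Between the genotypes Rfx1 had -0.02 ± 0.30 and Rfx2 0.11 ± 0.30, and none of the 6 tested genes of the 10 in this list was called. Foxj1, Rfx4, Gmnc and Mcidas, with at most 4 counts over all libraries together, were not tested.

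Of 92 other genes listed from the neighbouring machinery, 87 were tested. By genotype 0 of the 87 were called with 0 at an unadjusted p under 0.05 (edgeR), and their median log2 fold change was -0.0036. Between the sets 24 were higher and 16 lower, which is 46.0% of them. This share is close to the 44.7% of all tested genes. Of 18 other genes listed with the transition zone, not all of them parts of it, 3 were higher and 2 lower. The kinase gene Csnk1d had 0.76 ± 0.10, Anks6 0.90 ± 0.19 and Cep162 -0.73 ± 0.17 (log2, SE). Of 21 other distal appendage and centriole genes 5 were higher and 6 lower. Pcnt, which encodes a large scaffold of the pericentriolar material, had 0.70 ± 0.13. Cep128 had -0.96 ± 0.15, Cep192 -0.58 ± 0.10 and the centrin gene Cetn3 -0.54 ± 0.09.

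Of 15 other satellite and capping genes 3 were higher and 3 lower between the sets. Mark4, a kinase gene, had 0.95 ± 0.12, Tchp 0.55 ± 0.12, Pibf1 -0.54 ± 0.13 and Aurka -0.53 ± 0.14. AURKA is the mitotic kinase that also promotes cilium disassembly. Of 18 ciliary vesicle and membrane traffic genes 7 were higher and 4 lower, among them Gbf1 with 0.89 ± 0.13, Asap1 with 0.76 ± 0.13, Ehd1 with 0.47 ± 0.10 and Rab10 with 0.41 ± 0.09. GBF1 and ASAP1 act on the ARF GTPases. Of 9 tested genes listed for lipidated cargo or membrane phosphoinositides 4 were higher and 1 lower. The phosphoinositide kinase genes Pi4k2a and Pip5k1c had 0.67 ± 0.09 and 0.81 ± 0.12. Unc119b, which encodes a carrier of myristoylated cargo, had 0.43 ± 0.09. The one lower gene, Rp2, which encodes the GTPase-activating protein for ARL3, had -0.48 ± 0.13.

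By genotype the gene with the smallest p of each list was as follows. Tmem237 had a log2 fold change of -0.20 ± 0.23, Sclt1 -0.25 ± 0.19, Ssx2ip 0.25 ± 0.17, Exoc6 -0.22 ± 0.17, Pde6d -0.20 ± 0.14 and Rfx7 0.13 ± 0.14. None passed (adjusted p = 0.9996 for each, edgeR).

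Some markers of other cells also differed between the title number sets, where 20.1% of all tested genes were lower and 24.6% higher. Of the 6 corneal epithelial markers 2 were higher in the high-number set and 0 lower. These were Aldh3a1 (0.63 ± 0.16, adjusted p = 0.0146, edgeR) and Tkt (0.38 ± 0.13, adjusted p = 0.0373). The summed level of 6 leukocyte markers was 20.6, 13.7 and 16.5 CPM in the low-number libraries and 4.39, 3.69 and 2.58 CPM in the high-number ones, with 4 of 4 tested markers lower and 2 too low to test. Of 9 cell cycle markers 7 were lower, and their summed level was 999, 935 and 1051 CPM against 620.4, 582 and 696 CPM. Of 5 conjunctival markers 2 were lower, Muc5ac and Agr2, with sums of 5545, 4609 and 5974 CPM against 3485, 5698 and 3115 CPM. The multiciliated marker list summed to 123, 104 and 112 CPM against 58.3, 66.0 and 33.5 CPM, nearly all of it Tppp3, the 1 of its 3 tested genes that was lower. Of the keratocyte list 1 gene was tested, Vim, and it was lower. The defining keratocyte markers Kera and Lum had 0 counts in every library, and the 6 markers of that list summed to at most 2.12 CPM. Of 4 nerve and Schwann cell markers 2 were tested and 0 called, and of 3 vessel markers 0 were tested. In bulk RNA, fewer cells of a type and less RNA per cell cannot be told apart, and the part of these cells in the differences of the members was not tested. Between the genotypes no marker of any list was called.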

How the data were processed

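Total RNA of corneal epithelial sheets was sequenced on an Illumina HiSeq, per the labels and design text. The authors deposited raw counts, whole numbers per Ensembl gene. The aligner, counter, strand setting, build and annotation were not given in the sources used here. Columns were matched to samples by title, with 0 columns of other samples. The table held 25006 genes, 24991 of them in GENCODE M21 on GRCm38, which gave names, positions and exon lengths and was not checked against the annotation used for counting. No 2 libraries agreed within sampling noise (smallest chi-square per degree of freedom: 10.6).

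Counts were filtered with filterByExpr, which left 12847 genes, scaled with TMM factors and tested with edgeR 4.0.16 (glmQLFit, glmQLFTest) in R 4.3.3. The model held genotype alone, or genotype and title number set. P-values were adjusted over all tested genes (Benjamini-Hochberg, two-sided, threshold 0.05). SE is the log2 fold change divided by the square root of F, and the 95% intervals use the t distribution with edgeR's total degrees of freedom. Fold changes within a set are log2 ratios of mean CPM. The fits were first tried on simulated counts. Those for the genotype fit held no difference by title number set, unlike these libraries, and the outcome is not used here. DESeq2 1.42.0, limma voom 3.58.1, other factors, filters, each sample left out and summed samples were alternatives.

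The members, the lists and the title number comparison were chosen with earlier results of these data known. Per-library values are given, in each of 8 role groups, for the member highest per length and those with the smallest p by genotype and by title number, and for called members. From other lists up to 4 called genes with the smallest p are named, and otherwise the 1 with the smallest genotype p. Other named genes were chosen after their values were seen. Single values of 1 member and 1 listed gene are not reported here; both are in the counts and medians.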

Additional observations from a re-analysis of the deposited data

How the results depend on the processing

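No paired analysis was possible because the labels give no replicate numbers, and no title number is shared between the genotypes. By genotype, 0 members and 0 of the neighbouring genes were called under each of the 14 alternatives run. Over all genes 1 was called, 5 with DESeq2 and 0 after summing libraries of the same title number. The member median of -0.02 ran from -0.0731 to 0.0591 when single samples were left out, above 0 only without the library labelled EphA2 null 2. Between the title number sets, 8 members and 5740 genes were called. Summing libraries of the same title number left 5 members and 38.9% of all genes. When single samples were left out it ran from 0 to 11 members, from 1103 to 5803 genes and from 9 to 38 neighbouring genes, against 40, each lowest without the library labelled EphA2 null 1. Without wild type 2 it was 4 members and 3549 genes, and without wild type 3 it was 3702 genes and 24 neighbouring genes. The member median ran from -0.11 without wild type 3 to 0.14 without the library labelled EphA2 null 1. Upper quartile factors moved the median of all genes from -0.01 to -0.13 and that of the members to -0.14, turned 3154 higher and 2586 lower genes into 2480 and 3797, and called 3 members higher and 8 lower. Without a filter 12 members and 34.2% of all genes were called. Cep164, Cep290, Inpp5e and Rab11fip3 were called under 13 of 14 alternatives, Cep83 under 11, Mks1 and Rab8a under 8 and Tmem216 under 7, and 0 of these 8 changed sign. Depth limits Nphp4 and Cep97 most, with as few as 8 and 47 counts in a library.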
